A study of Mus musculus with 4 samples.

Results

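The effect of an Ezh2 deletion was compared between 2 T cell types: for each gene the change between genotypes in invariant natural killer T (iNKT) cells was set against the change in CD44-high CD4+ T cells (CD44hi). The measure was log2(FPKM + 1) in the knockout (KO) library less the wild-type (WT) library, called the genotype effect here, and the effect in iNKT less the effect in CD44hi, called the difference of effects. FPKM counts fragments per kilobase of transcript, relative to the size of the library. The genes described are the 9018 of 22473 symbols that reached 5 FPKM in 1 or more of the 4 libraries, and no measured difference was used to choose them. Of these genes, 7213 were at 5 FPKM or more in all 4 libraries and 614 in only 1. At the edge of this rule, Klf7 (highest value 5.01 FPKM) and Fbf1 (5.01) lay just inside, and Zcchc4 (4.998) and Slc31a2 (4.99) just outside.

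All cells were sorted from the spleen of mice on a C57BL/6 background. The WT groups came from wild-type mice, and the KO groups from Ezh2fl/fl CD4-Cre mice, in which Cre recombinase under the CD4 promoter acts in T cells from the stage of CD4 expression in the thymus, so both cell types had developed in its presence. iNKT cells were sorted on the T cell receptor beta chain and binding to CD1d tetramers carrying PBS-57, and CD44hi cells on CD4, CD44 and the same receptor chain. Each of the 4 groups was 1 library, so no difference has a replicate check, none was tested, and all values describe these libraries. The labels do not give the age or number of the mice, whether WT mice carried Cre, or whether cells that bind the tetramer were kept out of the CD44hi sort.

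Polycomb repressive complex 2 (PRC2), of which Ezh2 is a methyltransferase, marks histone H3 at lysine 27 and so keeps genes of other lineages or stages silent. iNKT cells are innate-like T cells that see lipids on CD1d and depend on the transcription factor PLZF, while CD44hi CD4+ T cells are mostly antigen-experienced cells and include regulatory (Treg) and follicular helper (Tfh) cells. Whether a loss of Ezh2 moves the same genes in both is the question that these 4 groups address together.

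Judged by the most frequent low value, taken as 1 fragment, the libraries held about 4900000 (WT) and 5300000 (KO) fragments for iNKT, and 18000000 (WT) and 24000000 (KO) for CD44hi. The T cell genes Cd3e, Cd3g and Cd3d lay between 176 and 631 FPKM in every library, and Cd4 was higher in both CD44hi libraries (405 and 252 FPKM) than in both iNKT libraries (98.8 and 101). Ezh2 was at 15.3, 16.8, 28.9 and 18.5 FPKM, read as iNKT (WT, then KO) followed by CD44hi (WT, then KO). Cre removes only the floxed part of Ezh2, so a value over the whole gene does not check the genotype. WT CD44hi held transcripts of the Y chromosome (Eif2s3y 22.7 FPKM, Ddx3y 11.5). KO CD44hi did not (0 and 0.00445), so the CD44hi libraries differed in Y-linked RNA as well as in genotype, and the part of this in the CD44hi effects was not tested. The iNKT libraries listed both genes at 0, and Xist lay between 46.8 and 80.0 in all 4. WT CD44hi thus differed from WT iNKT in Y-linked RNA too, a sign of cells from male mice in WT CD44hi alone. The part of this in differences between the WT cell types was not tested. Markers of other cells were summed over members under 1 FPKM in both iNKT libraries, a choice that fixes their low level in iNKT. The sum for 10 plasmacytoid dendritic cell markers was 94.0 FPKM in WT CD44hi, against 471 in KO. The same sum was 44.9 and 241 for 13 red cell and platelet markers, 120 and 329 for 15 B cell markers, and 79.6 and 96.4 for 6 myeloid markers. Without that choice, all 19 plasmacytoid dendritic cell markers summed to 611 (WT) and 372 (KO) in iNKT. In CD44hi all 19 summed to 362 (WT) and 1294 (KO). In bulk samples, fewer cells of a type and less RNA per cell cannot be told apart.

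The genotype effects in the 2 cell types had a correlation near 0 across genes, and more genes moved in iNKT than in CD44hi. At 2-fold on the log2(FPKM + 1) scale, KO iNKT had 436 genes higher (4.83%) and 277 lower (3.07%), against 190 (2.11%) higher and 94 (1.04%) lower in KO CD44hi. In all, 114 genes passed 2-fold in both, which is 16.0% of the 713 in iNKT and 40.1% of the 284 in CD44hi. Over all 9018 genes the shares past 2-fold were 3.15% in CD44hi and 7.91% in iNKT. Of those 114 genes, 69 moved in the same direction and 45 in opposite directions. The difference of effects reached 1 or more for 496 genes (5.5%) and -1 or less for 441 (4.89%), and ran from -5.28 (Hba-a2, a red cell haemoglobin gene) to 7.38 (Angptl2). Across genes, which are not independent, Pearson's r between the effects was 0.08 and Spearman's rho 0.08. Among the 114 genes past 2-fold in both, Pearson's r was 0.21. The spread of the effects over genes was wider in iNKT (SD 0.616) than in CD44hi (SD 0.401), with medians of 0.03 and 0.01. The iNKT libraries were the shallower, and the part of depth in this spread and in the counts was not tested.

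Genes were then placed in classes by their pair of effects. The class higher in both KO libraries held 52 genes (0.577%) and the class lower in both 17 (0.189%). In 23 genes (0.255%) the level was higher in KO iNKT and lower in KO CD44hi, and in 22 (0.244%) it was lower in KO iNKT and higher in KO CD44hi. A gene was called limited to 1 cell type when it passed 2-fold there and its effect in the other was under 0.5 in size. By this rule 255 genes (2.83%) were higher and 168 (1.86%) lower in iNKT alone, and 83 (0.92%) were higher and 38 (0.421%) lower in CD44hi alone. A further 225 genes (2.5%) lay between, with 1 effect past 2-fold and the other from 0.5 up to 1 in size. The balance of shared and opposed genes depended on low expression: among genes at 5 FPKM or more in all 4 libraries, 7 moved the same way and 20 oppositely.

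**Figure D1:**
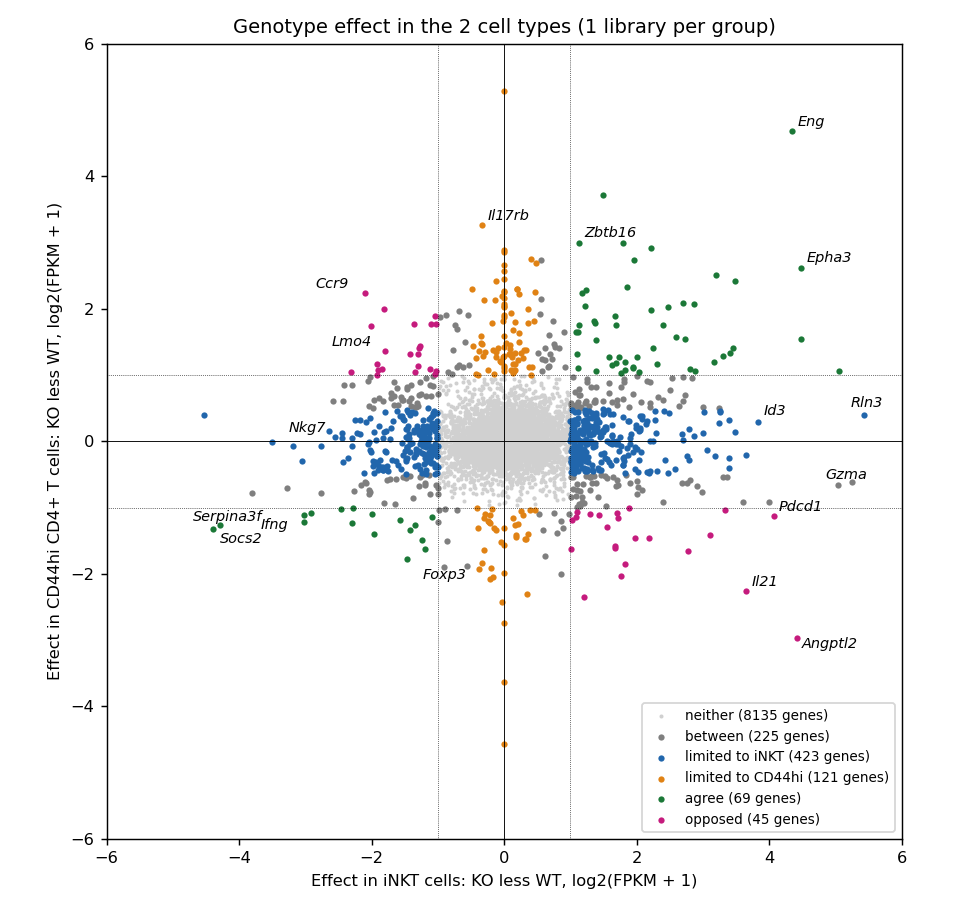
Each point is 1 of 9018 genes, with its genotype effect in iNKT on the x axis and in CD44hi on the y axis, both as KO less WT in log2(FPKM + 1), coloured by class, and dotted lines mark 2-fold. Most of the 713 genes past 2-fold in iNKT lie along the horizontal axis, while Eng stands alone at the upper right and Angptl2 at the lower right.

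Genes higher in both KO libraries were of many kinds. Ranked by the smaller of both effects, Eng came first, and Epha3, Klra1, Arhgap24, Atp6v0d2, Fzd6 and Akap6 stood ahead of Bmpr1a. Many were near silent in WT CD44hi, where 24 of the 52 were under 1 FPKM. Only 2 were at 5 FPKM or more in all 4 libraries, and 37 were higher in WT iNKT than in WT CD44hi. Their median effects were 1.94 in iNKT and 1.56 in CD44hi. Values given below as 4 numbers in a row are FPKM in the same order: iNKT WT and KO, then CD44hi WT and KO. Eng, which encodes endoglin, a co-receptor for TGF beta family ligands, was at 2.58, 71.9, 0.553 and 38.9. Its ratio of KO to WT was 27.9 in iNKT (20.7 to 39.0) and 70.3 in CD44hi (50.4 to 102); the brackets give 95% exact (Clopper-Pearson) intervals from estimated fragments, which cover counting error only.

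Bmpr1a, a type I receptor for bone morphogenetic proteins, was at 0.330, 6.38, 0.458 and 4.93 FPKM, near silent in both WT libraries and at similar levels in both KO libraries. The Wnt receptor gene Fzd6 showed the same arrangement at 0.599, 9.38, 0.406 and 4.96. Ryk, another Wnt receptor, was at 0.127, 11.3, 4.40 and 13.4, so that WT CD44hi was already above WT iNKT. The other members of the TGF beta, BMP and Notch list did not share this pattern: of 18 measured, 2 (Eng and Bmpr1a) were higher in both KO libraries, and the list's median effects were 0.07 in iNKT and -0.05 in CD44hi. Smad7, an inhibitor of the pathway, was at 16.3, 3.002, 14.2 and 9.90 FPKM and passed 2-fold in iNKT alone.

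The stretches of 250 bases before the RefSeq starts (GRCm38.p6) of Eng and Bmpr1a are shown because these genes had the same response and unlike promoters. They are written 5′ to 3′ on the gene's strand with each CpG in capitals. The Eng stretch lies at chr2:32646345-32646594 on the plus strand and holds 4 CpG, and the Bmpr1a stretch lies at chr14:34502547-34502796 on the minus strand and holds 36.
Eng: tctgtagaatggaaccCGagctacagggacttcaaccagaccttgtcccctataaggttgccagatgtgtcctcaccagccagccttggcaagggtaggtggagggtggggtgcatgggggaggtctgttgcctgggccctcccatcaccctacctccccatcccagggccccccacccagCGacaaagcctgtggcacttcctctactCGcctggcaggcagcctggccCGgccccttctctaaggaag
Bmpr1a: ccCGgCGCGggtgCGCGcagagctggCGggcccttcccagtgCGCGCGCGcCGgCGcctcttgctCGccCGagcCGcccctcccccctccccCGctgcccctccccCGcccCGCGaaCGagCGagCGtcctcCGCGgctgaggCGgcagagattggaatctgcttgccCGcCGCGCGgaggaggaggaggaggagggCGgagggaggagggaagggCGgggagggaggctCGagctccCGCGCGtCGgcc
PRC2 is known to favour CpG-dense DNA, and the median stretch of the 6550 genes with an entry held 18 CpG.

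Among transcription factors, Zbtb16, which encodes PLZF, was at 28.2, 63.1, 4.30 and 41.4 FPKM. KO CD44hi thus stood above WT iNKT for this gene. The ratio of KO to WT was 2.24 in iNKT (2.05 to 2.45) and 9.64 in CD44hi (8.72 to 10.7). Sox13, a factor of gamma delta T cells, was at 0.873, 6.30, 0.0947 and 6.30, level in the KO libraries. Hhex, a homeobox factor of early blood cells, was at 1.85, 29.3, 5.29 and 14.9, and Cxxc5, a CpG-binding zinc finger protein, at 4.59, 28.3, 5.18 and 19.8.

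Several genes best known outside the immune system were higher in both KO libraries, some of them from near nothing. Epha3, an ephrin receptor, was at 0.0513, 22.4, 0.362 and 7.39 FPKM, where the WT iNKT value rests on about 1 fragment. Its ratio in iNKT is therefore poorly bounded (112 to 24678), while that in CD44hi was 20.4 (14.7 to 29.2). Arhgap24, a GTPase-activating protein, was at 0.722, 18.3, 0.214 and 5.496, with nearly equal ratios of 25.3 (14.5 to 47.5) and 25.7 (15.2 to 47.4). Akap6, which anchors protein kinase A, was at 0.269, 8.21, 0.0731 and 3.54. Clstn3, a neuronal adhesion protein, was at 1.32, 7.39, 0.359 and 5.86. Nrgn, which encodes the calmodulin-binding protein neurogranin, passed 2-fold in both but far more in iNKT (6.75, 171.5, 4.34 and 14.5). Atp6v0d2, a subunit of the vacuolar proton pump, was at 7.66, 39.3, 3.15 and 30.4.

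**Figure D2:**
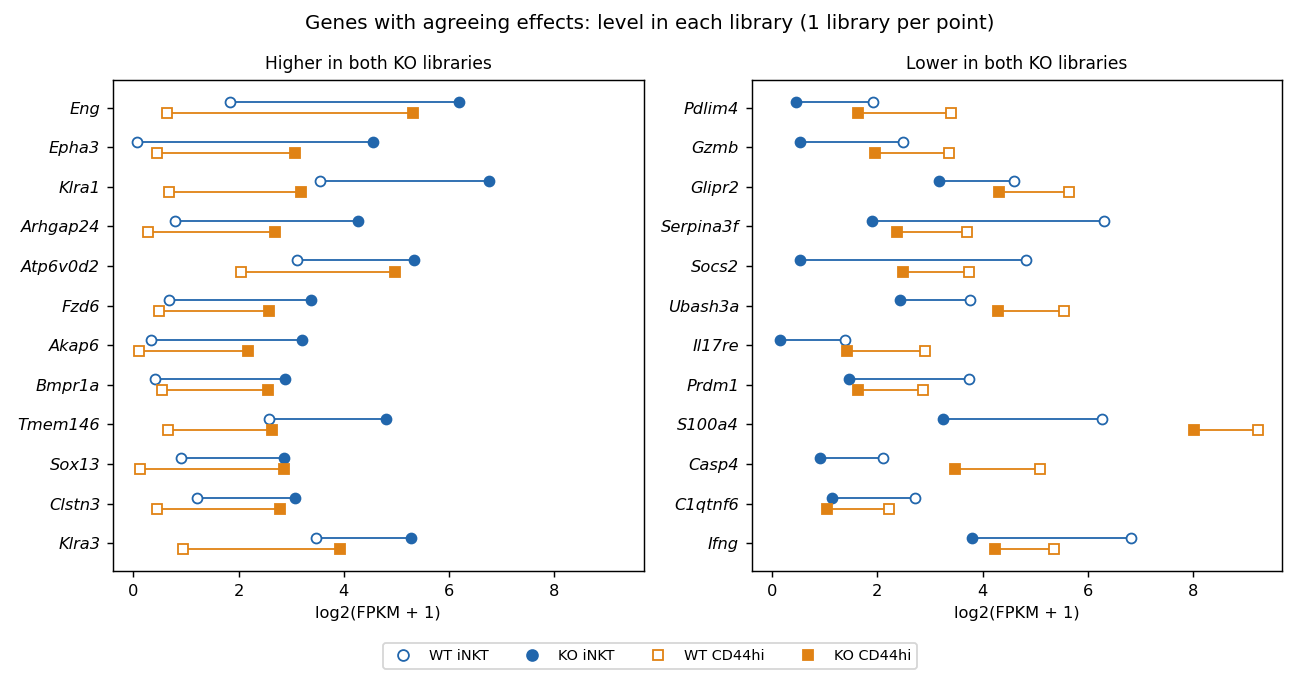
Levels in log2(FPKM + 1) on the x axis in each library (circles iNKT, squares CD44hi, open WT, filled KO, 1 library per point) for 12 genes higher in both KO libraries (left) and 12 lower in both (right). Eng goes from 2.58 to 71.9 FPKM in iNKT and from 0.553 to 38.9 in CD44hi, and both lines of each gene point the same way.

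The 17 genes lower in both KO libraries included the effector genes Ifng and Gzmb and the cytokine signalling inhibitors Socs2 and Cish, beside genes of other kinds such as Casp4, Glipr2, Pdlim4 and C1qtnf6. Of the 17, 13 were lower by more in iNKT than in CD44hi. The median effects of the 17 genes were -1.99 in iNKT and -1.23 in CD44hi. Ifng, the type 1 cytokine, was at 112, 12.9, 40.0 and 17.9 FPKM, which made KO iNKT the lowest of the 4 libraries. It was 8.68-fold lower in iNKT (6.89 to 11.1) and 2.24-fold lower in CD44hi (2.004 to 2.50). Gzmb, which encodes granzyme B, was at 4.63, 0.443, 9.22 and 2.87. Prdm1, which encodes the effector factor Blimp-1, was at 12.4, 1.74, 6.27 and 2.10. Il17re, a receptor subunit of the IL-17 family, was at 1.60, 0.106, 6.47 and 1.67. Socs2, a suppressor of cytokine signalling, was at 27.3, 0.444, 12.4 and 4.60, and Cish, of the same family, at 31.7, 7.23, 33.7 and 15.2. Serpina3f, a protease inhibitor, was at 77.6, 2.74, 12.01 and 4.19. S100a4, a calcium-binding protein of effector cells, was at 76.1, 8.497, 601 and 257. Bhlhe40, a transcription factor of activated T cells, was at 74.9, 14.7, 45.3 and 22.0.

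Genes with opposed effects formed a pair of mirror-image groups. The 23 genes that were higher in KO iNKT and lower in KO CD44hi were headed by Tfh genes, and all 23 had been higher in WT CD44hi than in WT iNKT. In the KO libraries 18 of the 23 were higher in iNKT. The median size of the gap between cell types was 2.54 in WT and 0.85 in KO on the log2(FPKM + 1) scale. The difference of effects is by arithmetic the KO gap less the WT gap, so these counts restate the same 4 libraries and are no separate evidence. None of the 23 genes was in a marker list of other cells, but such genes were rare among all genes described. Leaving them and sex-linked genes out took 9018 genes to 8947, so their absence from a group of 23 says little.

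Angptl2, which encodes a secreted angiopoietin-like protein and is a Tfh list gene, had the largest difference of effects of all genes, at 7.38. It was at 0.0597, 21.6, 27.7 and 2.68 FPKM, high in WT CD44hi and KO iNKT and low in the other libraries. The WT iNKT value rests on about 1 fragment, so the ratio in iNKT is poorly bounded (63.1 to 14007), while the gene was 10.3-fold lower in CD44hi (8.97 to 11.98). Il21, the helper cytokine of Tfh cells, was at 0.135, 13.3, 15.0 and 2.34, the same arrangement. Pdcd1, which encodes PD-1, was at 10.2, 187, 53.6 and 24.0, and Cxcr5, the follicle-homing receptor, at 0.963, 18.8, 75.9 and 36.5. The ratio of Pdcd1 was 18.3 in iNKT (14.9 to 22.6), and it was 2.23-fold lower in CD44hi (2.07 to 2.41). KO iNKT was above all other libraries for Pdcd1 but stayed below both CD44hi libraries for Cxcr5.

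The other genes of this group were of several kinds. Among signalling genes, Rgs16, which damps G protein signals, was at 0.636, 4.54, 19.3 and 3.99 FPKM, and Tiam1, an activator of Rac, at 1.89, 18.9, 32.7 and 9.68. Npas4, an activity-induced transcription factor best known in neurons, was at 0.252, 3.44, 5.91 and 0.913. Nrp1, a semaphorin co-receptor also carried by Treg cells, was at 8.84, 37.6, 22.0 and 7.41. Igfbp4, which binds insulin-like growth factors, was at 15.4, 51.2, 20.04 and 5.88. Vim (vimentin) was at 35.6, 120, 227 and 101, Itgb1 (integrin beta 1) at 80.0, 163, 214 and 93.0, and S100a6 at 84.9, 183, 198 and 93.9. These genes of migrating and activated T cells were abundant in all libraries, and each came to lie higher in KO iNKT than in KO CD44hi. Ces2c and the pseudogene Ces2d-ps are neighbours on chromosome 8 with similar sequence, so their values (0.164, 2.72, 7.93 and 1.99 for Ces2c) may share reads.

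The other opposed group held 22 genes, 19 of them higher in WT iNKT than in WT CD44hi and 20 of them higher in KO CD44hi than in KO iNKT. It contained receptors and adaptors of NK and iNKT cells. The median gap between cell types was 2.04 in size in WT and 0.84 in KO. As in the first opposed group, these counts and gaps restate the same 4 libraries. Ccr9, a chemokine receptor for homing to the gut, had the most negative difference of effects in the group at -4.33. It was at 41.0, 8.81, 7.91 and 41.0 FPKM, so WT iNKT and KO CD44hi were level. It was 4.65-fold lower in KO iNKT (4.04 to 5.37) and 5.18-fold higher in KO CD44hi (4.80 to 5.60).

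Lmo4, a LIM-only transcriptional adaptor, was at 227, 64.5, 45.8 and 119 FPKM. Plac8, a gene of innate-like lymphocytes, was at 155, 60.1, 42.0 and 146. Klrc1 and Klrc2, which encode the NK receptors NKG2A and NKG2C, were at 69.8, 33.8, 13.8 and 49.8 and at 53.5, 21.2, 4.92 and 13.7. These 2 genes are neighbours of similar sequence, so reads may be shared between them. Il18rap, a subunit of the IL-18 receptor, was at 49.4, 22.2, 13.3 and 29.7. Aqp9, a glycerol and water channel, was at 32.1, 7.19, 3.25 and 13.2, and Ly6g5b, a lymphocyte antigen gene, at 27.8, 7.16, 4.14 and 19.5. Ckb, a creatine kinase, was at 122.8, 49.7, 28.3 and 77.3, Ctla2a, a protease inhibitor, at 54.0, 21.8, 16.6 and 46.9, and Soat2, a sterol acyltransferase, at 30.0, 11.6, 6.70 and 16.0. Each was high in WT iNKT, low in WT CD44hi and closer between the KO libraries.

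Ccr9, Plac8 and Tyrobp of this group also mark plasmacytoid dendritic, myeloid or NK cells. Tyrobp, an adaptor for activating receptors, was at 6.95, 1.98, 121 and 305 FPKM, far above the iNKT libraries in both CD44hi libraries. The dendritic cell gene Siglech moved beside these genes in CD44hi (11.1 in WT, 75.7 in KO) and was listed at 0 in both iNKT libraries. All 19 plasmacytoid dendritic cell markers were above WT in KO CD44hi. The 13 NK cell markers summed to 281 FPKM in WT CD44hi and 642 in KO, with 7 of 13 higher in KO, while the 4 that were under 1 FPKM in both iNKT libraries summed to 5.78 in KO CD44hi, against 6.00 in WT. The part of such cells in the opposed group was not tested; without the marker lists it held 19 genes, and the first opposed group still held 23.

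**Figure D3:**
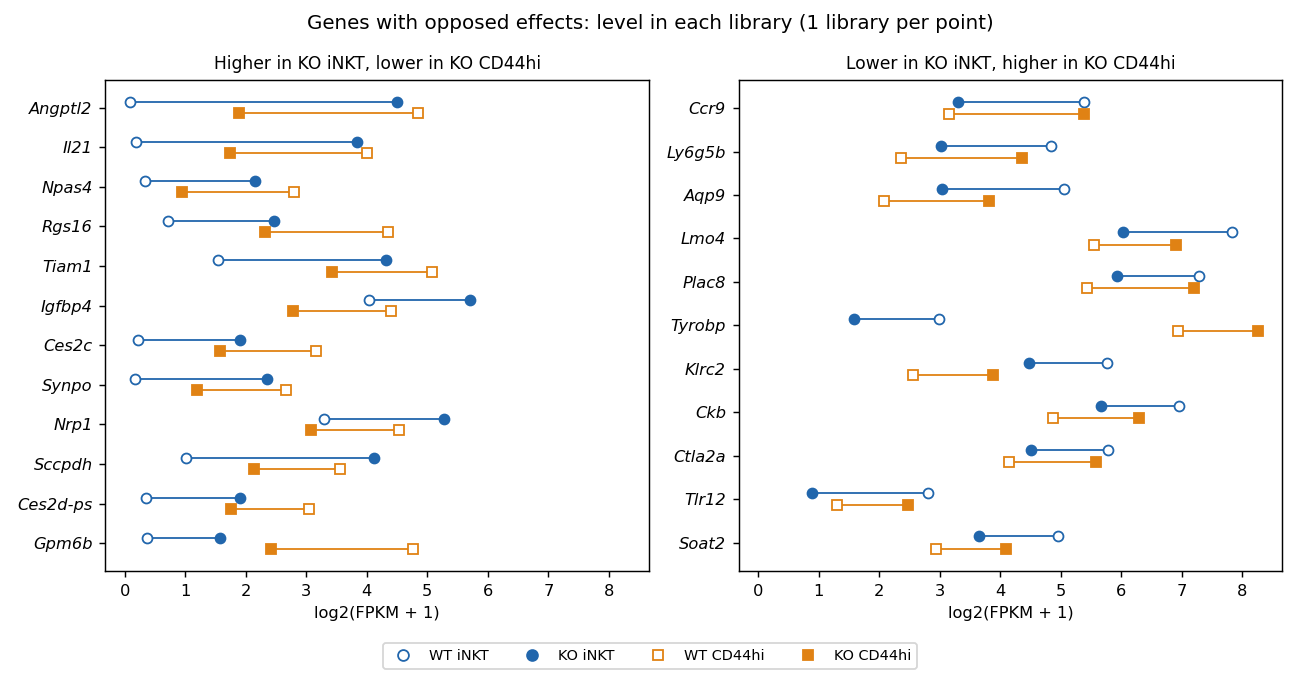
Levels in log2(FPKM + 1) on the x axis in each library (circles iNKT, squares CD44hi, open WT, filled KO, 1 library per point) for 12 genes of the first opposed group (left) and 11 of the second (right). On the left WT iNKT lies below WT CD44hi for each gene (Angptl2 at 0.0597 and 27.7 FPKM), and on the right WT iNKT lies above WT CD44hi except for Tyrobp (6.95 and 121).

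The stretches before the starts of Angptl2 and Ccr9 are shown as the leaders of the opposed groups. That of Angptl2 lies at chr2:33215711-33215960 on the plus strand with 9 CpG, and that of Ccr9 at chr9:123766961-123767210 on the plus strand with 3.
Angptl2: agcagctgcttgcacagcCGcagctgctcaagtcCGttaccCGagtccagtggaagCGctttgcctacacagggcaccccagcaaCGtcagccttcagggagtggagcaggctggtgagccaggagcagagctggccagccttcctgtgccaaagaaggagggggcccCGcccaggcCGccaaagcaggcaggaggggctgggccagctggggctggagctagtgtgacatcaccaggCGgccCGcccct
Ccr9: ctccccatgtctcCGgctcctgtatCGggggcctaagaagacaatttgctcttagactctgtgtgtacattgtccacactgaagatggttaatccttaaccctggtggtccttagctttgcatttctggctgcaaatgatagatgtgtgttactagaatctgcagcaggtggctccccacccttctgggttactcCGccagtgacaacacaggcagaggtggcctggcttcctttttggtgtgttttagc
The classes differed in how CpG-rich these stretches were. The median was 18 over all genes, 11 in genes higher in both KO libraries and 5.5 in genes lower in both. It was 10 and 4 in the first and the second opposed group. It was 18 for the higher and 15 for the lower genes limited to iNKT, and 5 and 14 for those limited to CD44hi. At least 10 CpG were found in 80.4% of all stretches, 53.8% of those of genes higher in both (39 with an entry), 50.0% and 33.3% in the opposed groups (18 with an entry each) and 34.9% of those of genes higher in CD44hi alone (63 with an entry). The T-box letters AGGTGTG, searched on both strands, occurred in 4.75% of all stretches and in 1 and 2 of the 18 in the opposed groups. The letters CTTTGAA of TCF and LEF factors occurred in 3.86% of all and in 1 of 18 in each opposed group, and the letters GTGGGCG of EGR factors in 15.3% of all and in 1 of 18 in each. A match is a description and not a binding site.

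A 2-fold gap between the cell types was found for 1113 genes in WT and for 861 in KO. In WT, 329 genes were at least 2-fold higher in iNKT and 784 at least 2-fold higher in CD44hi. In KO, 60 of those 329 and 431 of those 784 had a 2-fold gap of the same sign, while 322 genes had a gap in KO and not in WT. Genes picked for a gap in 1 pair of single libraries tend to show a smaller gap in another pair, so these counts are a description. For 48 of the 1113 genes the gap turned and passed 2-fold the other way, among them 7 genes of each opposed group and 16 of the class higher in iNKT alone. Of the 48, 16 had been higher in WT iNKT. The gaps in WT and in KO had a Pearson's r of 0.653 across genes.

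Genes higher in KO iNKT alone formed the largest class and included regulators of naive and memory T cells, cell cycle genes and receptors or hormones from other tissues. The median effect of its 255 genes was 1.32 in iNKT. Rln3, a relaxin peptide, had the largest effect (5.43), at 2.86, 166, 22.5 and 30.0 FPKM, so KO iNKT also stood above both CD44hi libraries. Id3, an inhibitor of E proteins that restrains the iNKT and Tfh fates, was at 11.4, 175, 38.7 and 47.9. Its ratio was 15.4 in iNKT (12.2 to 19.9) and 1.24 in CD44hi (1.14 to 1.35). Vdr, the vitamin D receptor, was at 1.77, 28.0, 2.09 and 1.60, near silent in all libraries but KO iNKT. Rnf43, a ubiquitin ligase that removes Wnt receptors, was at 1.70, 29.4, 19.2 and 21.3, and Tnfsf11, which encodes RANKL, at 8.10, 61.9, 26.4 and 21.6. Fgf18, a growth factor, was listed at 0 in WT iNKT, against 11.6 with the deletion, and CD44hi cells held 0.357 (WT) and 0.179 (KO). Of the 255 genes, 221 had been higher in WT CD44hi than in WT iNKT, and 201 were higher in KO iNKT than in KO CD44hi. Among the 8135 genes past 2-fold in neither cell type, the same counts were 4313 and 4029. The class rule uses the same iNKT values and so favours these directions, which are no separate evidence.

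Part of the naive and memory list moved in this direction: of 18 measured, KO iNKT had 7 higher and 0 lower, and KO CD44hi 0 higher and 2 lower. Its median effects were 0.34 in iNKT and -0.29 in CD44hi. Its median difference of effects was 1.27, against 0.02 over all genes. For this and the next lists, the share of all genes described that passed 2-fold upward was 4.83% in iNKT and 2.11% in CD44hi. Tcf7, which encodes TCF-1, was at 159, 558, 505 and 429 FPKM, and its partner Lef1 at 30.9, 74.5, 45.4 and 40.4. Myb was at 7.04, 56.6, 10.3 and 20.9, and Ccr7, a receptor for homing to lymph nodes, at 13.2, 34.6, 64.0 and 49.9. Dapl1, listed at 0 for both iNKT libraries, stood at 26.6 in WT CD44hi against 3.11 in KO. Of 22 DNA replication genes 8 were higher in KO iNKT and 0 in KO CD44hi (median effects 0.82 and -0.01), with Uhrf1 at 6.14, 25.6, 9.49 and 9.85 and Ccne1 at 4.97, 13.4, 6.11 and 4.76. Of 17 mitosis genes 3 were higher in KO iNKT (medians 0.75 and -0.12), such as Top2a at 14.7, 34.1, 16.6 and 14.8.

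Genes lower in KO iNKT alone included 7 type 1 effector and 4 cytotoxic granule genes among 168. Over all 9018 genes, 18 of the type 1 list and 16 of the granule list were measured. Nkg7, a granule protein, was at 437, 73.5, 78.7 and 82.3 FPKM, which placed KO iNKT level with the CD44hi libraries. Tbx21, which encodes T-bet, was at 70.4, 19.5, 27.3 and 37.3, and was 3.60-fold lower in iNKT (3.13 to 4.15) and 1.37-fold higher in CD44hi (1.28 to 1.47). Il12rb2, which encodes an IL-12 receptor chain, was at 29.1, 4.51, 5.49 and 5.75, Prf1 (perforin) at 11.6, 1.45, 4.79 and 3.84, and the chemokine Ccl5 at 925, 204, 306 and 383. Anxa1, a membrane-binding annexin, was at 14.9, 0.752, 5.68 and 5.37. Thy1, a surface antigen of T cells, was at 449, 82.7, 537 and 432. Sulf2, a sulfatase of heparan chains, was at 18.7, 2.15, 8.48 and 9.52. In 133 of the 168 genes WT iNKT had been above WT CD44hi, a direction that the class rule favours. The same held for 3822 of the 8135 genes past 2-fold in neither cell type. Ndufs5, a subunit of respiratory complex I, had the most negative effect, but its KO iNKT value of 0.00789 amounts to less than 1 fragment and is uncertain (22.2 in WT iNKT, 31.6 and 42.1 in CD44hi).

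Genes higher in KO CD44hi alone included many that iNKT cells did not express. Of the 83 genes, 51 were under 1 FPKM in both iNKT libraries, and 21 were markers of other cells. Over all genes, leaving out markers of other cells and sex-linked genes took 9018 to 8947. Examples among the 21 are Klk1 (6.51 in WT CD44hi, 53.7 in KO), Cd300c (3.56 and 26.0) and Ly6d (34.7 and 174) of the dendritic cell list, and Hbb-b1 (33.4 and 169) of red cells. Sums over 10 and over all 19 members of the dendritic cell list are given above. The part of other cells in this class was not tested. In iNKT cells 26 of the 83 genes reached 5 FPKM, and 3 of these 26 were markers of other cells. Il17rb, a subunit of the IL-25 receptor, was at 160, 126, 7.55 and 80.9 FPKM, and its neighbour on chromosome 14, Chdh (choline dehydrogenase), at 28.2, 37.6, 3.24 and 27.6. Il17rb was 10.7-fold higher in KO CD44hi (9.51 to 12.1) and 1.26-fold lower in KO iNKT (1.18 to 1.36). Qpct, an enzyme that modifies peptide ends, was at 25.5, 35.4, 2.53 and 11.5, Cap2, an actin regulator, at 7.73, 7.93, 0.851 and 4.16, and Trpm6, a magnesium channel, at 8.78, 10.4, 0.982 and 4.58. In these genes KO CD44hi lay between WT CD44hi and the iNKT libraries, but not in all: of the 26 genes, 12 were below both iNKT libraries in KO CD44hi and 12 were above both. Among the latter, Acpp, a phosphatase, was at 11.3, 12.1, 5.77 and 17.6, and Bst2 (tetherin), a dendritic cell list gene, at 101, 78.7, 64.2 and 195. The gene Eif3j is listed at 0.00466 in WT CD44hi, below 1 fragment, and is uncertain.

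Genes lower in KO CD44hi alone included 8 Treg list genes among 38, and 4 inhibitory receptors. Over all 9018 genes, 22 of the Treg list and 18 of the inhibitory receptor list were measured. Foxp3, the Treg regulator, was at 0.446, 0.115, 53.8 and 13.4 FPKM, and Lrrc32, which anchors TGF beta on Treg cells, at 0.214, 0.0496, 11.7 and 2.02. Tigit was at 1.78, 1.42, 80.1 and 20.5, and Il10 at 0.176, 0.488, 5.86 and 0.394. With iNKT levels this low the effect in iNKT could not be read for these genes, and 20 of the 38 genes were under 1 FPKM in both iNKT libraries. Members that iNKT cells did express were Ctla4, an inhibitory receptor, at 6.39, 4.87, 123 and 33.8; Capg, an actin-capping protein, at 29.7, 37.0, 87.0 and 30.7; Nt5e, the ecto-enzyme CD73, at 27.7, 25.4, 50.5 and 19.5; and Socs3, a suppressor of cytokine signalling, at 19.1, 23.1, 49.8 and 23.6. In each of these the effect in iNKT was under 0.5 in size. Gzmk, a granzyme listed at 0 for both iNKT libraries, stood at 21.3 in WT CD44hi against 4.64 in KO. Eif2s3y and Ddx3y also fall in this class, by the Y-linked values of WT CD44hi.

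Among the lists other than markers of other cells and sex-linked genes, the Tfh list had the largest median difference of effects in size. Of 19 Tfh genes measured, KO iNKT had 10 higher and 0 lower, and KO CD44hi 0 higher and 6 lower, with a median difference of effects of 2.11. Besides the opposed genes, Tox2 was at 0.658, 25.6, 35.4 and 18.3 FPKM and Cd200 at 2.44, 40.8, 18.8 and 9.55. Bcl6, the Tfh regulator, was at 5.59, 10.8, 24.1 and 14.5 and did not pass 2-fold in either. Of 22 Treg genes, KO iNKT had 6 higher and 4 lower, and KO CD44hi 0 higher and 14 lower (median difference 1.53). Type 1 genes went the other way: of 18, 0 were higher and 13 lower in KO iNKT, and 1 higher and 1 lower in KO CD44hi (median difference -1.75). For comparison, 4.83% of all genes described passed 2-fold upward with the deletion in iNKT, and 3.07% downward. In CD44hi these shares were 2.11% and 1.04%. The lists overlap, and Id3 stands in 3 of them. They were chosen with earlier results of these data known, so their ranking is a description and no separate evidence.

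Several named genes lay between the classes, with 1 effect past 2-fold and the other of intermediate size. Gzma, which encodes granzyme A, was at 1.72, 89.0, 9.97 and 5.92 FPKM with a difference of effects of 5.71, and Ptpn5, a tyrosine phosphatase, at 0.892, 71.4, 5.03 and 2.95 with 5.87. Cxcr6, a homing receptor of iNKT cells, was at 468, 94.6, 69.6 and 127, and Egr2, an inducer of PLZF, at 1.96, 14.6, 16.3 and 8.20. Id2, of the same family of E protein inhibitors as Id3, was at 1172, 441, 327 and 475. Il4 was at 52.3, 118, 8.03 and 11.9, above WT in each KO library. None of 10 PRC2 subunits passed 2-fold in either cell type (median effects 0.15 and 0.02). Over all genes 7.91% passed in iNKT and 3.15% in CD44hi, so 0 of 10 lies near the general share. Phf1, an accessory subunit on chromosome 17, lay at the threshold in iNKT, at 78.2, 38.6, 109 and 77.2 FPKM with an effect of -0.999. Of the developmental regulators known as PRC2 targets, 0 of 40 reached 5 FPKM in any library. The 36 ribosomal protein genes (medians 0.15 and 0.24) and 28 oxidative phosphorylation genes (0.06 and 0.07) moved little, with Ndufs5 the exception among them.

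**Figure D4:**
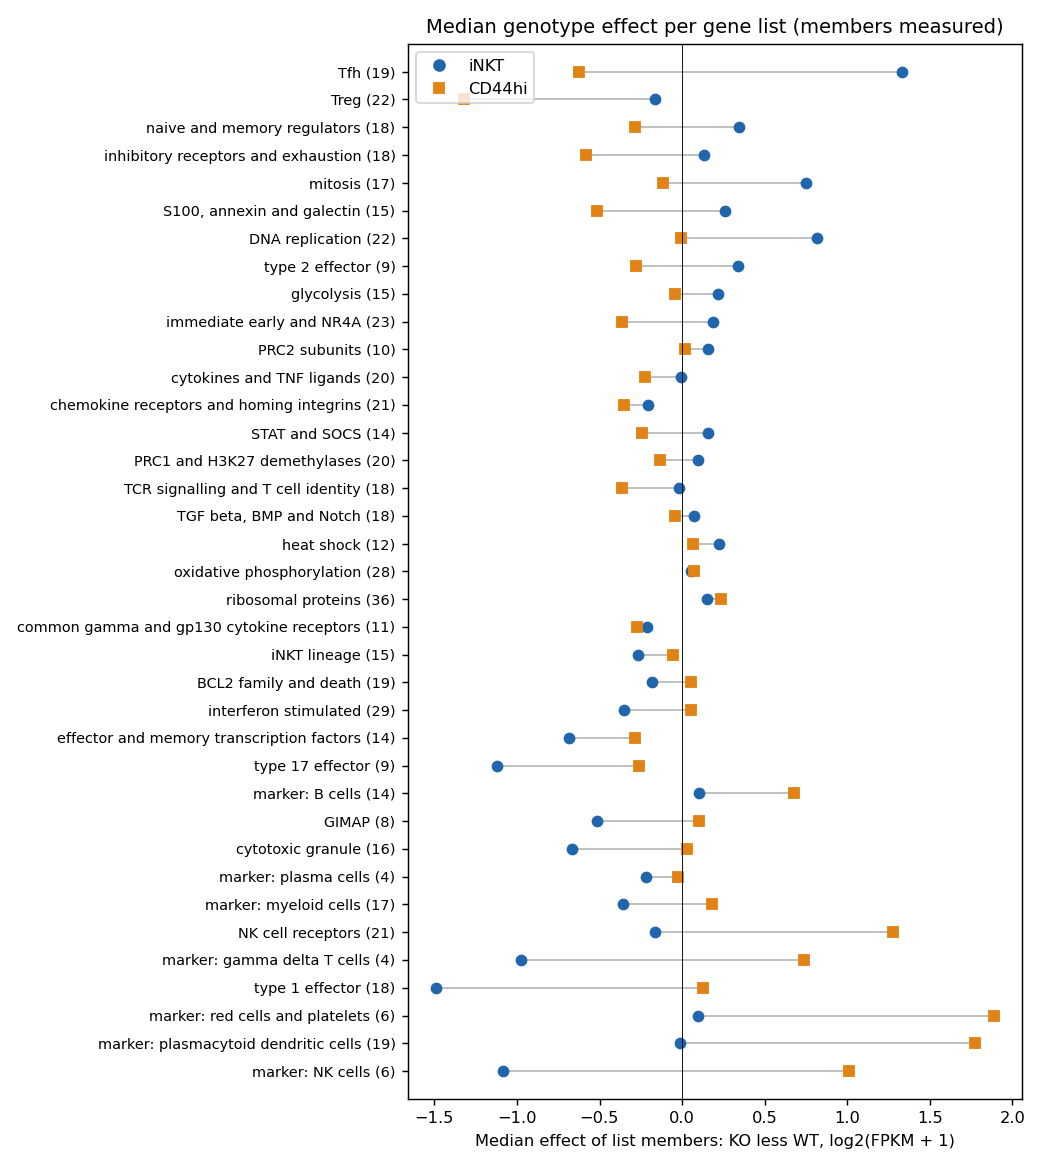
Median genotype effect (KO less WT, log2(FPKM + 1)) of the measured members of each gene list in iNKT (circles) and CD44hi (squares), sorted by the median difference, with the number of members in brackets. Tfh genes head the plot with 1.33 in iNKT and -0.62 in CD44hi, and type 1 genes lie near its foot with -1.49 and 0.12.

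The NK gene complex on chromosome 6 (122270596 to 130386874, GRCm38) held genes of both the shared and the opposed kind side by side. Of 22 Klr, Clec2 and Cd69 genes measured there, 5 were higher in both KO libraries (Klra1, Klra3, Klra9, Klra10 and Klrb1a) and 2 were opposed (Klrc1 and Klrc2). Genes with other names in this span, such as Clstn3, were not counted. Klra1, a Ly49 receptor for MHC class I, was at 10.7, 107, 0.610 and 8.16 FPKM, Klra3 at 10.1, 37.5, 0.925 and 14.3, and Klrb1a, of the NKR-P1 family, at 6.66, 29.9, 0.572 and 2.81. Klra genes are near-identical and single members are uncertain. Klrd1 (CD94), the partner of the NKG2 chains, was at 182, 56.5, 23.9 and 45.3, Klrk1 (NKG2D) at 75.4, 22.3, 11.2 and 19.1, and Klrb1c (NK1.1) at 177, 96.2, 14.9 and 58.5. All NKG2 and CD94 genes named here were below WT in KO iNKT and above WT in KO CD44hi. Over the list of 21 NK cell receptors, 5 were higher and 6 lower in KO iNKT, and 13 higher and 1 lower in KO CD44hi, with a median difference of -1.19. The shares over all genes were 4.83% and 3.07% in KO iNKT, and 2.11% and 1.04% in KO CD44hi.

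Effects also shifted along 2 whole chromosomes, each in a single cell type. For genes at 5 FPKM or more in all 4 libraries, the median effect in iNKT was 0.34 over 388 genes of chromosome 17, and 84.3% of those genes were above 0. On the other 19 chromosomes the medians in iNKT ran from -0.03 to 0.05. In CD44hi the median of chromosome 17 was 0.00. In CD44hi it was chromosome 9 that stood apart, with a median of 0.18 over 381 genes and 86.9% of them above 0, against -0.05 to 0.03 on the other 19; its median in iNKT was -0.03. As plain folds these medians are 1.26 and 1.13. Along chromosome 17 all 7 windows of 10 megabases with 20 genes or more had a median above 0 in iNKT (0.18 to 0.55), and along chromosome 9 all 8 did in CD44hi (0.15 to 0.26). The gap between cell types on chromosome 17 was -0.04 in WT and 0.32 in KO, and on chromosome 9 it was 0.04 and -0.20. What lies behind these shifts was not tested, and with 1 library per group they cannot be told apart from properties of single libraries or mice.

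These shifts touch the classes. Chromosome 17 held 32 of the 231 placed genes higher in iNKT alone, against 483 of all 8196 placed genes. After the median effect of each chromosome was subtracted, 11 remained there and the class held 202 genes. Hsp90ab1, a heat shock chaperone on chromosome 17 (391, 927, 560 and 572 FPKM), left the class. Zbtb16, Ccr9, Aqp9 and Cxcr5 lie on chromosome 9 and Ly6g5b on chromosome 17, and all 5 stayed in their classes after the subtraction. Phf1 and Ccr2, a chemokine receptor, entered the class lower in iNKT alone, and Atp6v0c, a proton pump subunit, left the class lower in CD44hi alone.

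**Figure D5:**
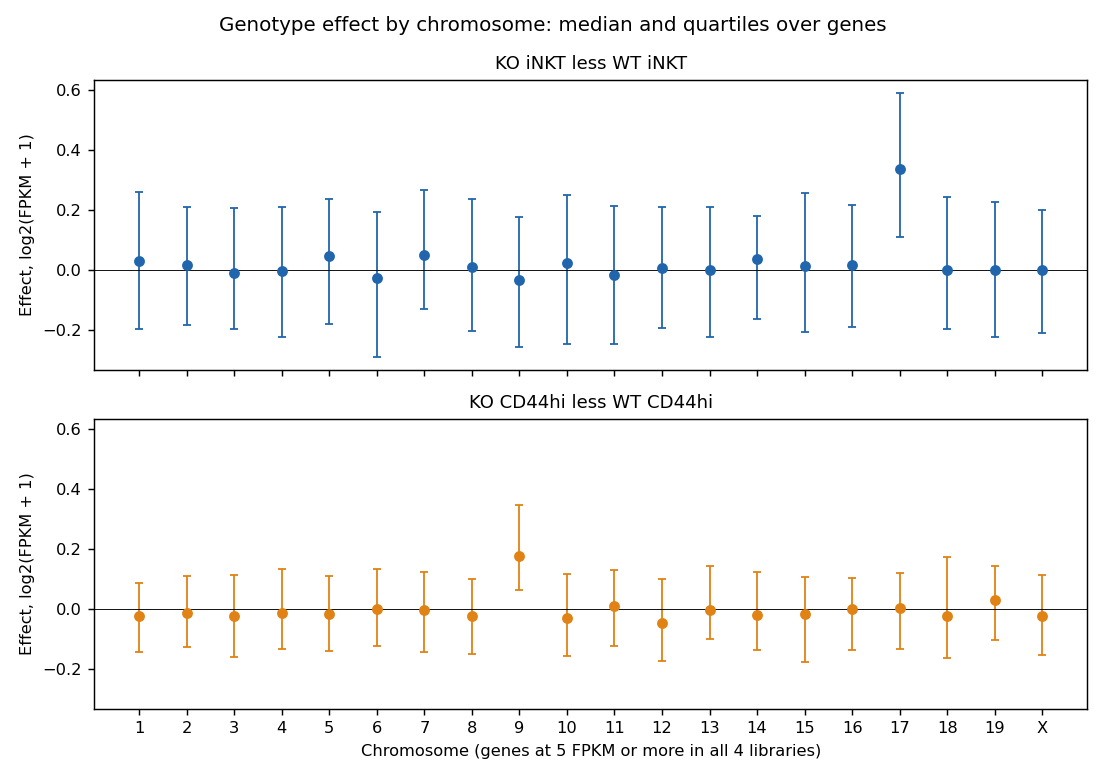
Median (points) and quartiles (bars) of the genotype effect, KO less WT in log2(FPKM + 1), over genes at 5 FPKM or more in all 4 libraries, for each chromosome, in iNKT (top) and CD44hi (bottom). Chromosome 17 stands at 0.34 in iNKT and chromosome 9 at 0.18 in CD44hi, while the other medians lie between -0.05 and 0.05.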

How the data were processed

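RNA was sequenced from 4 libraries, 1 per group, and the labels give no replicates. Each deposited file lists gene symbols and FPKM values for 1 library, per the file headers. Cufflinks 2.0.2, TopHat 1.3.2, Bowtie2 2.0.0 and the mm10 build are named in the submitters' processing notes. The step each tool served, the annotation, filters and the strand setting are not given in the sources used here. The library kit (TruSeq RNA v2, per the labels' protocols) does not mark strand, so overlapping genes on opposite strands cannot be told apart. The files hold no counts, so no count model could be used.

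Values of symbols on several lines (240) were summed. Symbols of small RNA genes (785) and 26 symbols turned into dates or numbers were left out, which kept 22473. A pseudocount of 1 was added before the log2 values were taken from the deposited FPKM, which understates the change of low genes. Effects, classes and list medians were computed with Python 3.11.15, pandas 2.3.3, numpy 2.4.6 and scipy 1.17.1, and figures with matplotlib 3.10.9. The scripts' class calls were tested on simulated data with counting error only, base levels of 5 FPKM or more and equal WT levels in both cell types. Genes near silent in WT and variation between mice were outside that check. Depth was estimated from the most frequent value of FPKM times length, taken as 1 fragment. That value was sought among levels under 1 FPKM in coding transcripts of at least 3000 bases. Lengths and positions came from GENCODE M21 (GRCm38, called mm10), which matched 90.9% of the genes described. One fragment in a transcript of 2 kilobases is then worth 0.102, 0.0947, 0.0277 and 0.0208 FPKM, read as iNKT (WT, KO) and then CD44hi (WT, KO). All 4 value columns were mapped to their samples, and 0 were left unmapped. Promoter sequences came from RefSeq (GRCm38.p6).

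Genes named were, without predicted genes, small RNA genes, receptor segments and symbols on several lines: the 12 genes of each shared and opposed class whose smaller effect was largest, the 10 with the largest effect of each limited class (for CD44hi also the 10 largest among genes at 5 FPKM in an iNKT library), the 10 largest and 10 smallest differences of effects, up to 4 per list, and a fixed set of regulators. Further genes were chosen after their values were seen, among them Ryk, Hhex, Cxxc5, Nrgn, Cish, Bhlhe40, Itgb1, Il18rap, Myb, Ccr7, Klrd1, Klrk1 and Klrb1a. The classes and lists were chosen with earlier results of these data known. Alternatives were tried for the pseudocount, the filter, the scaling, the thresholds, marker genes and repeated symbols, as given at the close. Some genes that meet these rules are not reported here.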

Additional observations from a re-analysis of the deposited data

Results flagged for a closer look

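A total of 45 genes moved past 2-fold in opposite directions in the iNKT and the CD44hi comparison: 23 were higher in KO iNKT and lower in KO CD44hi, and 22 the reverse. With 1 library per group the opposition was not tested. The values are differences of effects (iNKT less CD44hi, log2(FPKM + 1)) for named genes of each group. In the first group they were 7.38 for Angptl2, 5.91 for Il21, 4.53 for Sccpdh, 4.44 for Tiam1, 3.79 for Rgs16, 3.68 for Npas4, 3.64 for Synpo, 3.56 for Gpm6b, 3.42 for Nrp1, 3.28 for Igfbp4, 3.26 for Ces2c and 2.85 for Ces2d-ps. In the second group they were -4.33 for Ccr9, -3.82 for Ly6g5b, -3.75 for Aqp9, -3.16 for Lmo4, -3.13 for Plac8, -3.09 for Tlr12, -2.74 for Tyrobp, -2.72 for Ctla2a, -2.71 for Ckb, -2.61 for Klrc2 and -2.45 for Soat2.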

How the results depend on the processing

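Of 189 recomputed counts, 131 stayed within 1.5 times the value in the report and 58 moved, and of 908 recomputed differences of effects for 227 named genes, 0 changed sign and 48 moved. Scaling between libraries, a pseudocount of 0.5, leaving out marker genes and the handling of repeated symbols moved no count that far, nor did subtracting chromosome medians. That last choice and the 2 stricter expression rules across cell types were added after the data were seen. The counts that moved follow for genes higher in both, lower in both, opposed (iNKT higher, then iNKT lower), iNKT alone (higher, lower) and CD44hi alone (higher, lower). A pseudocount of 2 gave 32 higher and 10 lower in both. A minimum of 1 FPKM and no minimum each gave 406 higher in iNKT alone, and 137 higher and 63 lower in CD44hi alone. A minimum of 10 FPKM gave 34 higher in both, 166 higher in iNKT alone, and 55 and 23 in CD44hi alone. A minimum of 5 FPKM in an iNKT library gave 14 in the first opposed group, 26 and 11 in CD44hi alone, and 164 past 2-fold in CD44hi. With a limit of 1 on the other effect, 0 genes lay between. A 1.5-fold threshold gave 134, 63, 86, 91, 757, 519, 199 and 110, with 128 between, 1744 in iNKT, 717 in CD44hi and 2065 by the difference of effects. A 3-fold threshold gave 15, 0, 6, 3, 84, 54, 37 and 12, with 291, 107 and 410. A minimum in both cell types gave 31 and 10 in both, 14 in the first opposed group, 23 and 11 in CD44hi alone, and 136 in CD44hi. A minimum in all 4 libraries gave 2, 5, 6, 14, 104, 103, 14 and 8, with 79 between, 301, 61 and 399. The balance between shared and opposed genes turned under that last rule.

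No paired analysis was possible because each group was 1 library; leaving out a library gives no value. The iNKT libraries were the shallower, so low iNKT values carry the widest counting intervals, and values below 1 fragment are uncertain. Differences between libraries that come from mice, sorting or handling cannot be told apart from genotype or cell type.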
